A study of Mus musculus with 12 samples.

Results

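The comparison described here set hematopoietic stem cells (HSCs) of antibiotic-treated mice against those of untreated mice while both were regenerating the marrow after 5-fluorouracil. It used 6 of the 12 libraries of the study, chosen by their labels alone: 3 labelled antibiotics plus 5-FU (antibiotics 5-FU) and 3 labelled 5-FU without antibiotics (control 5-FU). All mice were C57BL/6 and 12 weeks old, and each library was made from RNA of 2000 HSCs sorted from bone marrow. Both groups had received 5-FU intravenously at 200 mg/kg and were taken on day 12. The antibiotics 5-FU mice had first been given vancomycin, ampicillin, metronidazole and neomycin in their water over 4 to 6 weeks, and the labels do not say whether the drugs were continued after 5-FU. The other 6 libraries, 3 from control and 3 from antibiotic-treated mice without 5-FU (steady state), entered the model as well. Nothing in the labels ties a library to its own animal, so each p-value below measures the spread between these libraries, which may be partly technical.

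HSCs are rare, mostly dormant marrow cells from which all blood lineages descend. The antimetabolite 5-FU kills dividing cells, after which surviving HSCs divide and rebuild the marrow. Oral antibiotic mixtures of this kind deplete gut bacteria, whose products reach the marrow and act on blood formation through innate sensors, interferons and other cytokines.

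Expression was measured as RPKM, read counts scaled to transcript length and to library size, as deposited, for 46986 features. Genes that reached 1 RPKM in 3 or more of the 12 libraries, 8553 in all, were tested with limma on log2(RPKM + 1). A gene was called at an adjusted p under 0.05 over all 8553 genes. Log2 differences are antibiotics 5-FU minus control 5-FU, given ± SE with n = 3 libraries per group, and they understate changes of genes at a few RPKM. Estimated depth was 27.4 to 53.2 M reads in control 5-FU and 31.2 to 38.0 M reads in antibiotics 5-FU libraries. Control 5-FU replicate 1 stood apart, correlating across genes at 0.971 and 0.972 with replicates 3 and 2 of its group, which correlated at 0.989, and at 0.981 with antibiotics 5-FU replicate 1, which carries the same i7 sequencing index. These 2 libraries also shared the highest summed level of 17 stroma and endothelium markers, 59.2 and 64.3 RPKM against 14.1 to 15.2 RPKM in the other 4, with the secreted Cxcl12 at 4.72 and 23.4 RPKM and Sparc at 22.3 and 13.2 RPKM, and both genes at or below 0.563 RPKM in the other 4. The part of either in the results was not tested.

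Of the 30 HSC identity genes 23 had a median of at least 1 RPKM, but markers of other cells were present too. Of 14 B cell markers 3 were at the floor of the table in all 6 libraries, among them Ms4a1 and Pax5, while Cd79b was at 8.56 to 12.8 RPKM and Igkc reached 9.97 RPKM in control 5-FU replicate 2. Of 18 T and NK cell markers 6 were at the floor throughout, among them Cd3e, Cd8a and Ncr1, while Klrb1c was at 4.31 to 6.41 RPKM. Nkg7, a granule membrane gene of cytotoxic cells, was at 34.5 to 49.5 RPKM in control 5-FU and 25.7 to 31.4 RPKM in antibiotics 5-FU libraries without overlap. The summed T and NK markers, made up mostly of Nkg7, were at 39.8 to 56.0 and 33.1 to 38.8 RPKM in the same order. Klrb1c was at 4.31 to 6.41 and 5.26 to 6.20 RPKM, which overlapped. The 19 macrophage markers summed to 326 to 387 RPKM in control 5-FU and 276 to 321 RPKM in antibiotics 5-FU libraries. Most of that sum was Apoe, at 291 to 363 and 238 to 281 RPKM without overlap (-0.33 ± 0.12, limma, adjusted p = 0.217). Of the 10 tested macrophage genes, however, 7 had differences above 0 and 3 below. The erythroid list summed to 659 RPKM in antibiotics 5-FU replicate 3 and to 270 to 388 RPKM in the other 5 libraries, with the globin gene Hba-a2 at 132 RPKM there and 6.99 to 42.5 RPKM elsewhere. All 13 mitochondrial messenger RNAs were at the floor too and are not described.

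Few genes passed the threshold. Limma called 10 of 8553 genes (0.117%), 6 higher (0.0702%) and 4 lower (0.0468%) with antibiotics, and 1275 genes (14.9%) had an unadjusted p under 0.05. The called genes were an 18S ribosomal RNA feature, the small nuclear RNA 7SK, the secreted proteins Serpinf1 and Ebi3, the small membrane protein gene Snn and the largest subunit of RNA polymerase II, all higher. Smim5, Brat1, Tomm34 and the predicted feature Gm37599 were lower. Across all genes the median log2 difference was 0.014, and 90% of genes differed by less than 0.304. None of the 844 tested entries of 36 gene lists was called.

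**Figure D1:**
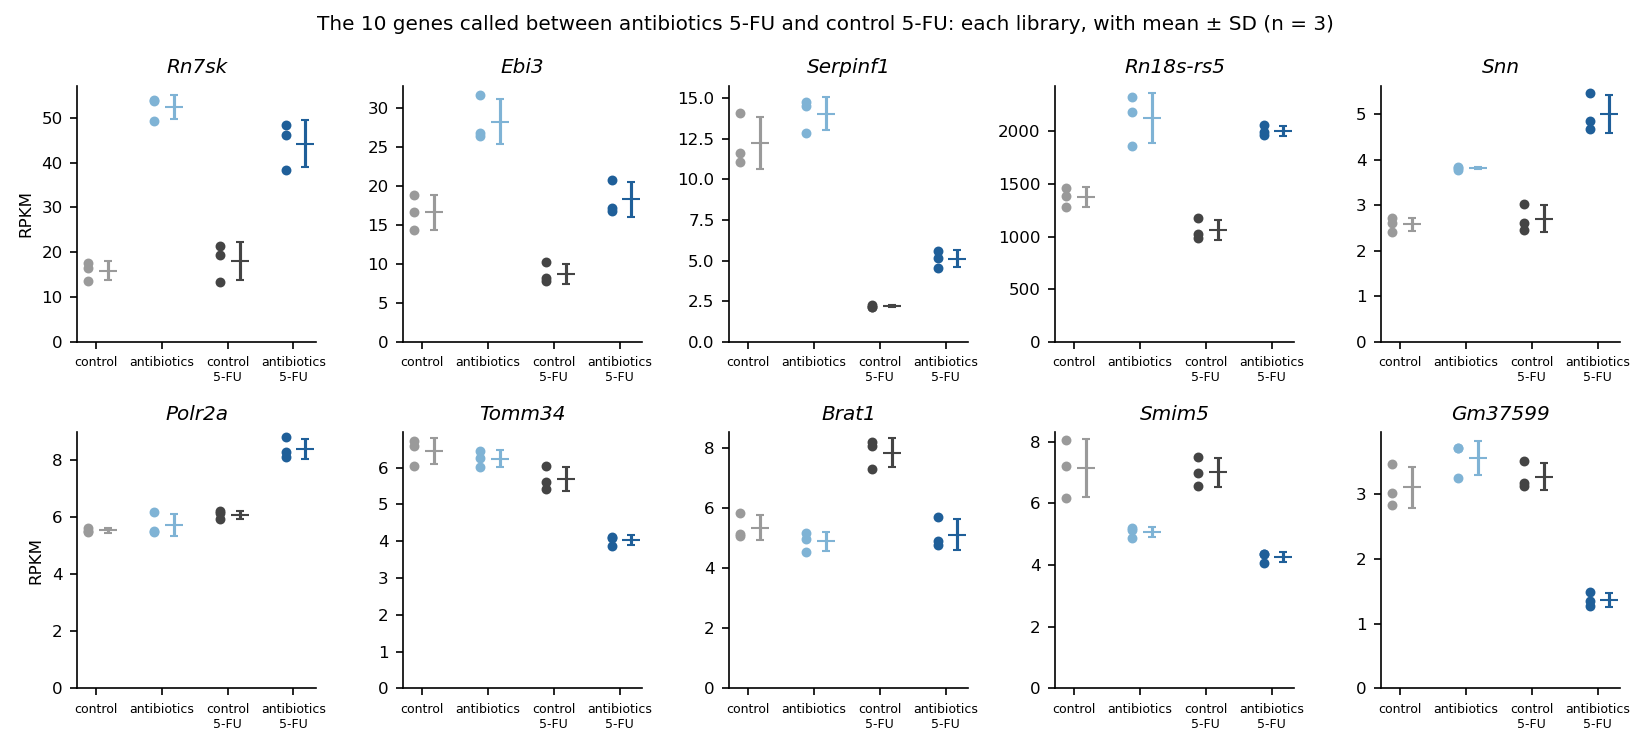
Expression (RPKM, vertical axis from 0) of the 10 called genes in each library of the 4 groups, with the mean ± SD of n = 3 beside the points. In each panel the 3 antibiotics 5-FU libraries (dark blue) lie wholly above or below the 3 control 5-FU libraries (dark grey). Ebi3, Rn7sk, Rn18s-rs5 and Snn are also higher with antibiotics among the steady-state libraries (light points).

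Serpinf1 (mm10 chr11:75409769-75422701, protein coding) encodes pigment epithelium-derived factor, a secreted serpin that restrains blood vessel growth. It stood at 2.25, 2.17 and 2.14 RPKM in control 5-FU replicates 1 to 3 and at 5.18, 5.61 and 4.55 RPKM in antibiotics 5-FU replicates 1 to 3. The lowest antibiotics library was thus well above the highest control library, and the 3 control values lay close together. The log2 difference was 0.94 ± 0.10 (limma, adjusted p = 0.00229), with a call in all 19 alternative settings. Without 5-FU the gene was at 11.1 to 14.1 RPKM in control and 12.9 to 14.8 RPKM in antibiotics libraries, which overlapped, so that both day 12 groups lay below both steady-state groups. The antibiotic difference on day 12 exceeded that at steady state by 0.75 ± 0.14 on the log2 scale, which did not pass the interaction test (limma, adjusted p = 0.374).

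Ebi3 (chr17:55952623-55957021, protein coding) encodes a subunit shared by the cytokines interleukin 27 and interleukin 35. The control 5-FU libraries held 7.81, 10.2 and 8.16 RPKM and the antibiotics 5-FU libraries 17.2, 20.8 and 16.8 RPKM. The groups did not overlap, and the gene rose by 0.99 ± 0.13 (limma, adjusted p = 0.0111). At steady state all 3 antibiotics libraries, 26.3 to 31.6 RPKM, were also above all 3 control libraries, 14.4 to 18.8 RPKM, a difference of 0.73 ± 0.13 that missed the threshold (limma, adjusted p = 0.0664). Leaving out antibiotics 5-FU replicate 2 ended the day 12 call (adjusted p = 0.0641), as did leaving out both replicate 1 libraries (adjusted p = 0.0782), fitting the 6 compared libraries alone (0.116) and testing without a filter (0.0532). Snn (chr16:11066298-11074983), which encodes stannin, a small membrane protein known for its role in the toxicity of organotin compounds, is named here after its values were seen. Its values were 2.60, 3.03 and 2.46 RPKM without and 4.85, 4.67 and 5.47 RPKM with antibiotics. It rose by 0.70 ± 0.08 (limma, adjusted p = 0.00315), again with no overlap, and lost its call with the 6 compared libraries alone (adjusted p = 0.116).

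A second set of higher features were RNAs of the transcription and translation machinery. Rn18s-rs5 (chr17:39846353-39848827), annotated as ribosomal RNA, stood at 1173, 1029 and 985 RPKM in control 5-FU and at 2063, 1991 and 1970 RPKM in antibiotics 5-FU libraries. It rose by 0.92 ± 0.09 (limma, adjusted p = 0.00206), and it held 0.673% to 0.768% of the summed RPKM without and 1.29% to 1.33% with antibiotics. Rn7sk (chr9:78175303-78175633) encodes 7SK, a small nuclear RNA that holds the elongation kinase P-TEFb inactive. Its values were 21.4, 19.4 and 13.3 RPKM against 48.4, 38.2 and 46.1 RPKM, a rise of 1.27 ± 0.16 (limma, adjusted p = 0.009). It lost its call without antibiotics 5-FU replicate 1 (adjusted p = 0.0564), with the 6 compared libraries alone (0.156) and without a filter (0.0529). These 2 features were the only ones also called at steady state, where Rn18s-rs5 was higher by 0.62 ± 0.09 (limma, adjusted p = 0.0389) and Rn7sk by 1.67 ± 0.16 (limma, adjusted p = 0.00285). The interaction was called for neither (adjusted p = 0.598 and 0.655).

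Rn18s-rs5 and Rn7sk stand for RNAs that carry no poly(A) tail, whereas the SMART-Seq v4 kit named in the labels primes on poly(A). The signal recognition particle RNA features Rn7s1 and Rn7s2, looked at after their values were seen, belong to the same class. They hold identical values, 49.5, 51.3 and 31.1 RPKM against 83.4, 76.7 and 85.7 RPKM. Their difference of 0.91 ± 0.18 was not called (limma, adjusted p = 0.0764). The 3′ end of the annotated Rn7sk transcript (GENCODE M21, GRCm38) is shown because it bears on priming. Capitals mark the terminal run of T in the DNA sense.
Rn7sk: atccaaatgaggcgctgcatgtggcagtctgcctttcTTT
This stretch lies at chr9:78175303-78175342 on the minus strand. The transcript does not end in A, and the longest run of A within its 331 nt is 3 bases. How such RNAs entered the libraries was not tested.

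Polr2a (chr11:69733997-69758637), which encodes the largest, catalytic subunit of RNA polymerase II, was at 5.91, 6.12 and 6.20 RPKM without and 8.11, 8.78 and 8.28 RPKM with antibiotics. It rose by 0.41 ± 0.06 (limma, adjusted p = 0.0441). Both steady-state groups resembled the day 12 control, at 5.46 to 6.18 RPKM. With the i7 index as a replicate block the call was lost (adjusted p = 0.0882), as it was without control 5-FU replicate 2 (adjusted p = 0.127) or replicate 3 (0.0524) and without antibiotics 5-FU replicate 1 (0.126), 2 (0.153) or 3 (0.107). The same held without both replicate 1 libraries (0.126) and with the 6 compared libraries alone (0.156). Of 13 tested genes with a Polr2 symbol, looked at after the values were seen, Polr2a alone was called. In 3 others (23.1% of the 13), Polr2c, Polr2e and Polr2g, all antibiotics 5-FU libraries lay below all control 5-FU libraries, which held for 9.67% of all genes tested.

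Among the lower genes, Gm37599 (chr1:141356789-141357277), a predicted feature of no known function, is named outside the rule. It stood at 3.18, 3.52 and 3.13 RPKM without and 1.49, 1.27 and 1.35 RPKM with antibiotics. The groups were far apart relative to their spread, and it fell by 0.85 on the log2 scale, SE 0.08 (limma, adjusted p = 0.00206). Steady-state libraries held 2.84 to 3.72 RPKM in both groups. It was the single gene of 8553 (0.0117%) called for the interaction, at -1.0035 ± 0.11 (limma, adjusted p = 0.0134), where 710 genes (8.3%) had an unadjusted p under 0.05. The interaction call was lost with the i7 index as a replicate block (adjusted p = 0.111), without control 5-FU replicate 2 (0.0651), without antibiotics 5-FU replicate 2 (0.0789) or 3 (0.0791), and without both replicate 1 libraries (0.104).

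Smim5 (chr11:115899966-115906269) encodes a small integral membrane protein. Its values were 7.50, 6.55 and 6.99 RPKM in control 5-FU and 4.07, 4.37 and 4.36 RPKM in antibiotics 5-FU libraries, a difference of -0.61 ± 0.09 (limma, adjusted p = 0.0242). At steady state the antibiotics libraries, 4.88 to 5.21 RPKM, were also below the control libraries, 6.17 to 8.06 RPKM (difference -0.42 ± 0.09, adjusted p = 0.0846). Brat1 (chr5:140705011-140719379) encodes a partner of BRCA1 and of the damage kinase ATM. It was at 8.17, 8.05 and 7.29 RPKM against 4.75, 4.89 and 5.69 RPKM, a difference of -0.53 ± 0.08 (limma, adjusted p = 0.0441), and both steady-state groups lay between 4.54 and 5.82 RPKM. Tomm34 (chr2:164053540-164071169) encodes a cochaperone for proteins imported into mitochondria. It was at 5.60, 6.05 and 5.42 RPKM against 3.88, 4.12 and 4.10 RPKM, a difference of -0.41 ± 0.07 (limma, adjusted p = 0.049).

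The calls of these 3 genes were close to the threshold. With the i7 replicate block they had adjusted p = 0.0534 for Smim5, 0.0882 for Brat1 and 0.0853 for Tomm34. Leaving out antibiotics 5-FU replicate 1 gave adjusted p = 0.126, 0.159 and 0.159, and replicate 2 gave 0.0876, 0.144 and 0.141. Without antibiotics 5-FU replicate 3, Smim5 (0.0657) and Tomm34 (0.112) lost their calls. Without control 5-FU replicate 2, Brat1 (0.128) and Tomm34 (0.13) lost theirs. In the order Smim5, Brat1 and Tomm34, adjusted p was 0.131, 0.149 and 0.143 without both replicate 1 libraries and 0.116, 0.156 and 0.158 with the 6 compared libraries alone. Testing without a filter gave 0.0529 for Smim5 and 0.0639 for Brat1, and Tomm34 was at 0.0523 without the intensity trend and 0.0517 with robust moderation.

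**Figure D2:**
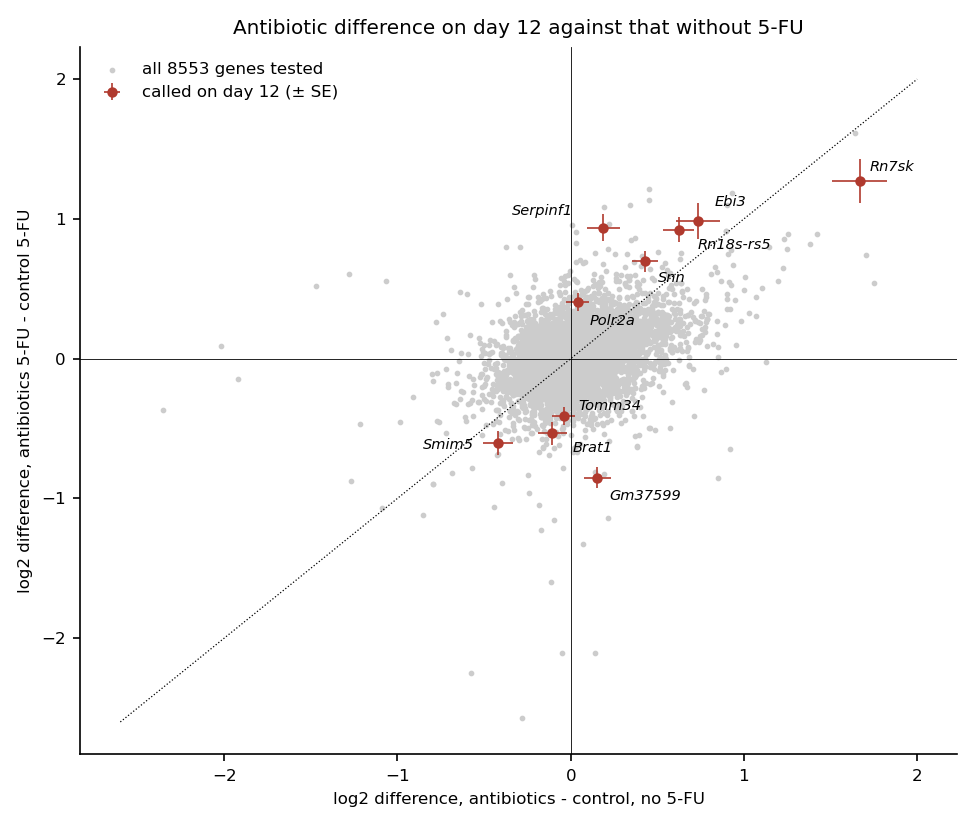
Log2 difference of each of 8553 genes (grey) with antibiotics at steady state (horizontal axis) and on day 12 after 5-FU (vertical axis), with the 10 called genes in red ± SE and the line of equal differences dotted. Rn7sk, Ebi3, Rn18s-rs5 and Snn are higher on both axes, Smim5 is lower on both, and Serpinf1, Polr2a, Brat1, Tomm34 and Gm37599 have steady-state differences within 0.19 of 0.

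The steady-state comparison uses other libraries, so its values are a separate measurement. Across the 8553 genes the log2 differences of both comparisons correlated at 0.39, and 62.9% of genes had the same sign; genes are not independent replicates, and the 12 libraries share 1 model and 1 flow cell. Apart from Gm37599, the adjusted interaction p of the called genes (limma) ran from 0.374 for Serpinf1 to 0.728 for Ebi3. Unadjusted, it ran from 0.000175 for Serpinf1 to 0.191 for Ebi3. After adjustment over all genes, a smaller or larger difference on day 12 was thus not shown for them.

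Just outside the threshold were abundant genes of the cytoskeleton and of RNA handling. Actb, the cytoplasmic beta-actin, stood at 359, 427 and 332 RPKM in control 5-FU and at 244, 215 and 233 RPKM in antibiotics 5-FU libraries. The difference was -0.68 ± 0.11 (limma, adjusted p = 0.0553), with no overlap, and the gene was also lower without overlap at steady state (-0.42 ± 0.11, adjusted p = 0.141). Its relative Actg1, the gamma-actin, was at 418 to 507 against 385 to 428 RPKM, which overlapped. Of the translation factor Eif4a2 the groups held 27.7 to 32.9 against 20.3 to 21.8 RPKM (-0.53 ± 0.10, adjusted p = 0.0636), and of the cyclophilin gene Ppid 5.40 to 6.70 against 4.06 to 4.30 RPKM (-0.47 ± 0.09, adjusted p = 0.067). On the higher side, Cd24a, a surface sialoglycoprotein, was at 50.1, 65.8 and 64.9 against 84.2, 90.9 and 99.7 RPKM (0.60 ± 0.11, adjusted p = 0.0636, and 0.0453 with the i7 replicate block). The membrane fusion gene Snap23 was at 4.81 to 5.55 against 6.88 to 8.34 RPKM (0.47 ± 0.08, adjusted p = 0.0633). H1f0, the linker histone of resting cells, was at 118 to 139 against 171 to 181 RPKM (0.43 ± 0.10, adjusted p = 0.0901), and its steady-state difference had the other sign (-0.37 ± 0.10, adjusted p = 0.138).

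Since no list member was called, the gene groups are described by how many members had all 3 antibiotics 5-FU libraries on one side of all 3 control 5-FU libraries. Among all genes tested this held for 985 genes higher (11.5%) and 827 lower (9.67%). At steady state, in its own libraries, it held for 13.0% higher and 9.06% lower. Without control 5-FU replicate 1 the day 12 shares of all genes were 19.8% and 15.6%, since fewer libraries are compared, and with one total for all libraries they were 7.55% and 13.8%. Members of a list share libraries, so these counts carry no test.

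**Figure D3:**
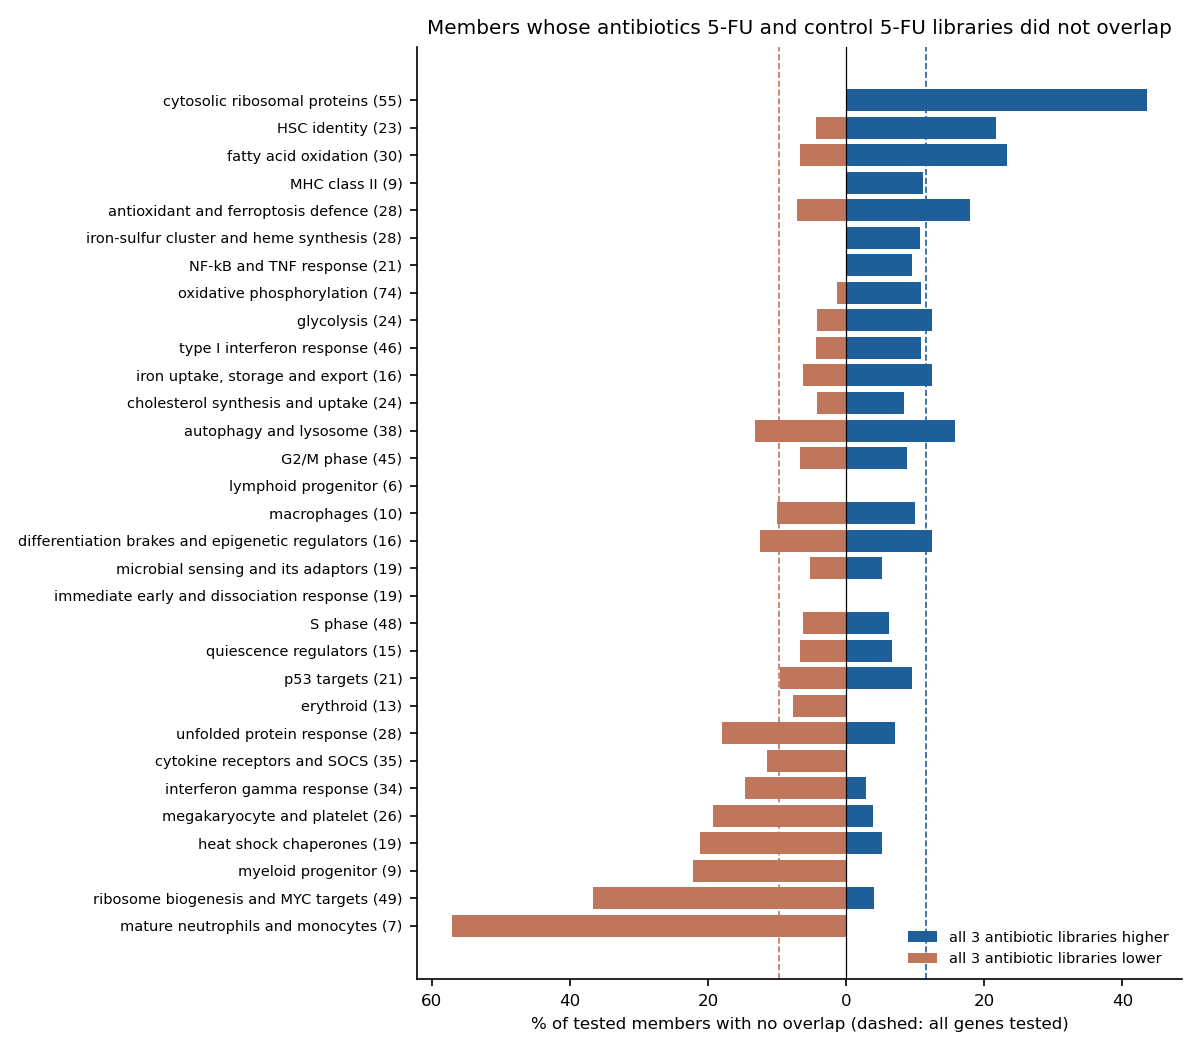
Percent of tested members of each gene list (number of members in parentheses, lists with at least 5) whose antibiotics 5-FU libraries all lay above (blue, to the right) or all below (brown, to the left) the control 5-FU libraries. Dashed lines give the 11.5% and 9.67% of all genes tested. Ribosomal proteins reach 43.6% on the higher side, and ribosome biogenesis reaches 36.7% and neutrophil markers 57.1% on the lower side.

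Ribosome genes were split into 2 groups that leaned in different directions. Of 55 tested genes of cytosolic ribosomal proteins, 24 (43.6%) were higher without overlap and 0 were lower, with a median log2 difference of 0.118 against 0.014 for all genes. Of 49 tested genes of ribosome biogenesis and MYC targets, which make and process ribosomal RNA in the nucleolus, 18 (36.7%) were lower without overlap and 2 were higher, with a median of -0.135. At steady state the medians were 0.075 and 0.036. Scaling to one total or by quantiles left the first median at 0.080 to 0.102 and the second at -0.168 to -0.134. Leaving out any 1 of the 6 libraries gave 0.087 to 0.172 and -0.174 to -0.110. The share of Rn18s-rs5 in the libraries, given above, moved with the groups in the same comparison, and its part in these counts was not tested.

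Rpl24, a protein of the large ribosomal subunit, was at 8.25, 7.75 and 7.06 RPKM in control 5-FU and at 10.4, 9.72 and 9.95 RPKM in antibiotics 5-FU libraries (0.35 ± 0.07, adjusted p = 0.0769). Rpl32, also of the large subunit, was at 197, 203 and 178 against 261, 257 and 258 RPKM (0.43 ± 0.10, adjusted p = 0.0901). The small subunit gene Rps23 was at 62.6, 60.7 and 54.9 against 77.1, 72.5 and 73.2 RPKM (0.32 ± 0.09, adjusted p = 0.124). In each of the 3 genes the antibiotics libraries lay close together and above the control libraries. The lowest members, Rpl27 and Rps15, had differences of -0.13 ± 0.13 and -0.10 ± 0.11 with overlapping libraries. Ribosomal protein genes have many processed pseudogenes, and pseudogenes held 41.2% to 42.9% of the summed RPKM, so the levels of single members are uncertain.

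Nop2, a methyltransferase of the large subunit ribosomal RNA, was at 8.75, 8.61 and 7.33 RPKM in control 5-FU and at 5.31, 5.62 and 6.36 RPKM in antibiotics 5-FU libraries (-0.45 ± 0.10, adjusted p = 0.0901). Polr1b, the second largest subunit of RNA polymerase I, which transcribes ribosomal RNA, was at 4.08, 3.76 and 3.71 against 2.47, 2.70 and 2.77 RPKM (-0.41 ± 0.10, adjusted p = 0.0919). The nucleolar helicase Ddx21 was at 4.17, 3.38 and 3.35 against 2.10, 2.45 and 2.57 RPKM (-0.46 ± 0.10, adjusted p = 0.0901). All 3 genes had every antibiotics library below every control library, as had Ppan, Rrp9, Bop1, Nop56 and Nolc1. The 2 members on the other side were the abundant nucleolar genes Npm1 (26.2 to 28.8 against 29.5 to 32.8 RPKM) and Ncl (32.6 to 33.2 against 33.9 to 34.7 RPKM). Myc itself was at 32.0 to 46.0 against 34.3 to 37.3 RPKM.

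**Figure D4:**
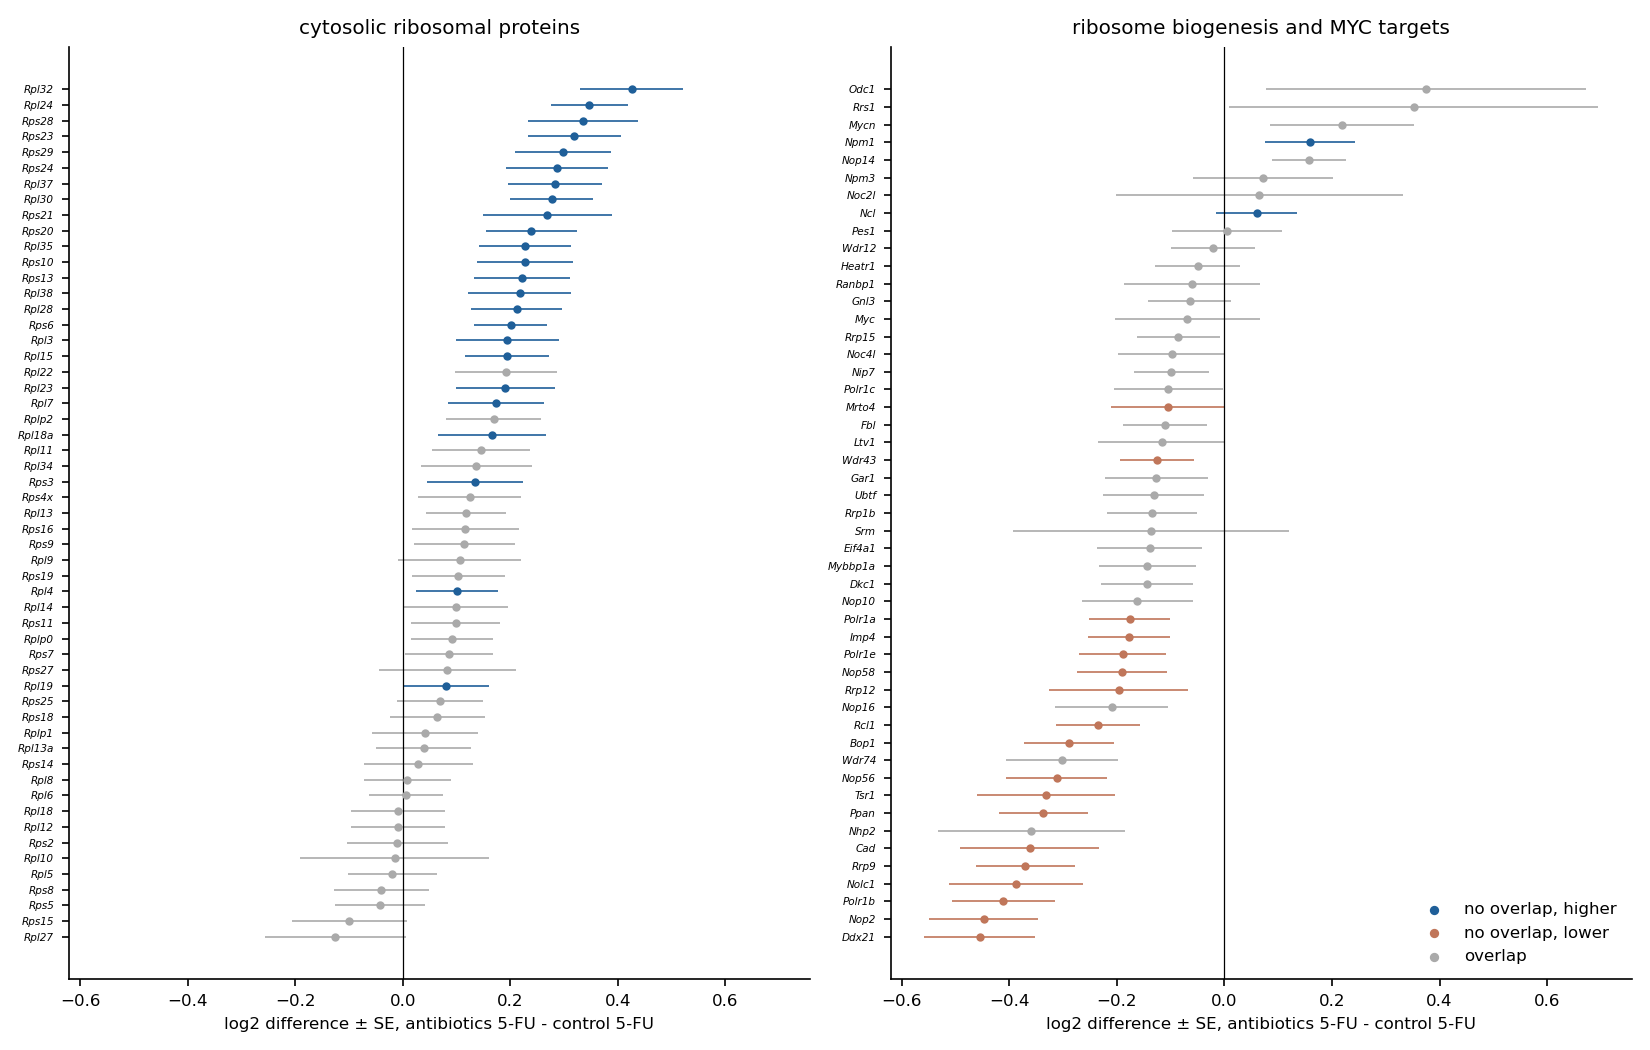
Log2 difference ± SE between antibiotics 5-FU and control 5-FU libraries (horizontal axis) of each tested gene of cytosolic ribosomal proteins (left) and of ribosome biogenesis and MYC targets (right), sorted. Blue and brown points mark genes with no overlap between the groups, 24 higher and 0 lower on the left and 2 higher and 18 lower on the right; no gene was called.

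Transcripts of ribosomal proteins typically begin with a terminal oligopyrimidine (TOP) tract, a C followed by pyrimidines, which couples their translation to growth signals. Promoter windows (RefSeq, GRCm38.p6, 250 bases before to 50 after each start) matched 42 of the 55 ribosomal protein genes and 42 of the 49 biogenesis genes. A C within 5 bases of the start followed by at least 4 pyrimidines was present in 22 of 49 ribosomal protein windows (44.9%), 8 of 51 biogenesis windows (15.7%), 20.1% of the windows of tested genes and 18.3% of all 32851 windows. Starts of 4 ribosomal protein genes with non-overlapping libraries are shown, with 20 bases on each side of the annotated start and the tract in capitals.
Rps24: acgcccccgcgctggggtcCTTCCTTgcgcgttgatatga
Rps6: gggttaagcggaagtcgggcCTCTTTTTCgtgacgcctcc
Rpl35: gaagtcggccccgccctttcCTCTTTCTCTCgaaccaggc
Rps10: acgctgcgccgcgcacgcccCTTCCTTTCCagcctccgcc
Their positions are chr14:24490658-24490697 on the plus strand and chr4:86857348-86857387, chr2:39005112-39005151 and chr17:27635225-27635264 on the minus strand. These genes stood at 28.0 to 31.7, 44.0 to 47.9, 31.2 to 38.8 and 12.7 to 15.6 RPKM in control 5-FU and at 36.7 to 37.4, 50.9 to 54.0, 40.0 to 41.6 and 16.9 to 17.4 RPKM in antibiotics 5-FU libraries.

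The E-box CACGTG, searched on both strands since it is its own reverse complement, is the sequence that MYC and its partner MAX bind. It lay in 8 of 51 biogenesis windows (15.7%), 8 of 49 ribosomal protein windows (16.3%), 10.8% of the windows of tested genes and 7.15% of all windows. By gene it lay in 8 of 42 biogenesis genes, 6 of 42 ribosomal protein genes and 12.7% of the tested genes with a window. Windows of 2 biogenesis genes with lower, non-overlapping libraries are shown, with the E-box in capitals.
Nop2: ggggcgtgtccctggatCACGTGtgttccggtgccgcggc
Imp4: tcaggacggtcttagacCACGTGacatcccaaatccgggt
They lie at chr6:125131806-125131845 and chr1:34439691-34439730, both on the plus strand. Imp4, a component of the machinery that processes small subunit ribosomal RNA, was at 13.2 to 15.5 RPKM in control 5-FU and 12.0 to 13.0 RPKM in antibiotics 5-FU libraries.

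Granule genes of neutrophils, the short-lived phagocytes that HSCs give rise to, showed the largest median difference of the lists. Of 19 neutrophil and monocyte markers, 7 passed the filter, and 4 of these 7 (57.1%) were lower without overlap. Passing the filter required at least 1 RPKM in 3 libraries, which genes high in 1 group reach more easily, so the median of -1.601 describes these 7 alone. The antimicrobial S100a9 was at 6.60, 16.7 and 44.3 RPKM in control 5-FU replicates 1 to 3 and at 2.05, 2.34 and 6.55 RPKM in antibiotics 5-FU replicates 1 to 3 (-2.10 ± 0.54, adjusted p = 0.112). Ngp, a neutrophil granule protein, was at 3.33, 8.77 and 48.1 against 0.492, 0.875 and 2.51 RPKM (-2.58 ± 0.72, adjusted p = 0.136). Camp, the antimicrobial cathelicidin, was at 1.33, 3.22 and 10.7 against 0.333, 0.407 and 1.20 RPKM (-1.60 ± 0.47, adjusted p = 0.152). In all 3 genes replicate 3 was the highest of its group, and the ranges of the groups came close to each other.

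S100a8, the partner of S100a9, was at 21.4, 57.7 and 143 against 8.32, 9.44 and 23.6 RPKM and overlapped (-2.10 ± 0.58, adjusted p = 0.133). Csf3r, the receptor for granulocyte colony-stimulating factor, was at 4.25, 6.38 and 7.87 against 2.62, 3.28 and 3.07 RPKM. Its difference of -0.82 ± 0.17 was not called (adjusted p = 0.0784) and passed with the i7 replicate block (adjusted p = 0.0422). The lysozyme gene Lyz2, which macrophages and their precursors also express, was at 97.7 to 126 against 98.4 to 106 RPKM, and S100a6 was at 5.81 to 5.98 against 5.80 to 7.80 RPKM. Without control 5-FU replicate 3, which had the highest values, the median of the 7 genes was -0.966, and without replicate 1 it was -2.133. The summed level of all 19 markers was 144 to 387 RPKM in control 5-FU and 125 to 144 RPKM in antibiotics 5-FU libraries. Ly6g and Mmp8, which mark mature neutrophils, were at the floor in 5 of the 6 libraries each, and Ccr2 and Fpr1 in 4. Other markers below the filter were detected. Lcn2, Chil3, Mmp9 and Ltf reached 6.98, 2.45, 2.34 and 2.01 RPKM in their highest library, with medians of 0.662, 0.0513, 0.0179 and 0.078 RPKM. In RNA of pooled cells, fewer cells of a type and less RNA per cell cannot be told apart.

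**Figure D5:**
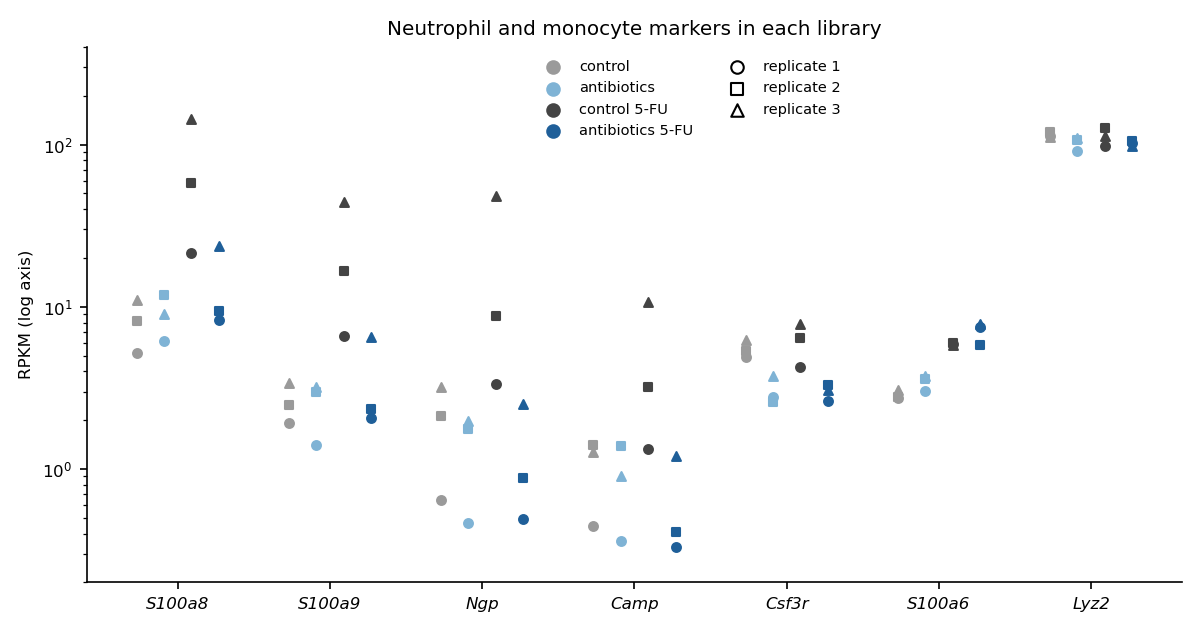
RPKM (log axis) of the 7 tested neutrophil and monocyte markers in each library, by group (colour) and replicate (shape). For S100a8, S100a9, Ngp and Camp the control 5-FU libraries spread widely, from 21.4 to 143 RPKM for S100a8, and antibiotics 5-FU libraries lie near or below the steady-state libraries, except replicate 3 for S100a8 and S100a9; Lyz2 is at a like level in all groups.

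Other lineage genes leaned less, and 1 library weighed on them. Of 26 tested megakaryocyte and platelet genes, 5 (19.2%) were lower and 1 was higher without overlap, with a median of -0.117. Itga2b, the integrin CD41, was at 29.7, 15.4 and 15.7 RPKM against 9.92, 9.11 and 12.4 RPKM (-0.83 ± 0.21, adjusted p = 0.11). Itgb3, the integrin chain that pairs with it on platelets, was at 5.64, 2.22 and 3.67 against 1.75, 1.71 and 1.65 RPKM (-0.78 ± 0.20, adjusted p = 0.11). Control 5-FU replicate 1 was the highest library for both. It also held 309 RPKM of the platelet chemokine Pf4, against 48.4 to 71.8 RPKM in the other 5. Without that library the median of the list was -0.010, with 7 members (26.9%) lower and 5 (19.2%) higher. The summed level of the megakaryocyte list was 636 RPKM there and 290 to 330 RPKM in the other 5 libraries. The 13 tested erythroid genes had a median of 0.068, with 8 differences above 0 and 5 below. That median ran from -0.146 to 0.205 with 1 library left out. Only Klf1, the master regulator of globin genes, did not overlap (7.69% lower, where all genes had 9.67%). It was at 8.71, 3.58 and 3.40 against 1.80, 1.89 and 2.89 RPKM (-0.88 ± 0.26, limma, adjusted p = 0.157). Klf1 was lower with antibiotics at steady state too (-1.27 ± 0.26, limma, adjusted p = 0.0846).

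HSC identity genes differed little. Of 23 tested, 5 (21.7%) were higher and 1 (4.35%) was lower without overlap, where all genes had 11.5% and 9.67%. With one total these counts became 2 higher and 2 lower (8.7% each). The median was 0.016, which turned to -0.011 with one total and -0.005 with quantile scaling. Of the 23 differences 13 were above 0 and 10 below. The non-overlapping members named here are from the higher side. Procr, the endothelial protein C receptor of long-term HSCs, was at 20.2, 28.2 and 27.3 against 29.3, 31.6 and 31.1 RPKM (0.29 ± 0.14, adjusted p = 0.386). Slamf1, the marker CD150, was at 2.43, 2.11 and 1.96 against 2.57, 2.72 and 3.03 RPKM (0.25 ± 0.09, adjusted p = 0.218). Ifitm1, an interferon-responsive membrane protein abundant in HSCs, was at 230, 244 and 264 against 329, 301 and 338 RPKM (0.39 ± 0.11, adjusted p = 0.138). Hlf, a transcription factor of HSC self-renewal, was at 4.47, 7.77 and 7.65 against 7.24, 7.82 and 7.73 RPKM, and its difference of 0.20 ± 0.15 turned to -0.02 without control 5-FU replicate 1. Kit (14.3 to 16.5 against 13.5 to 16.7 RPKM) and Hoxb5 (5.38 to 6.10 against 5.08 to 6.32 RPKM) overlapped. Mecom, a transcription factor of long-term HSCs, lay below the filter, at 0.387 to 0.476 against 0.487 to 0.55 RPKM without overlap.

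Cell cycle genes had non-overlap counts below those of all genes, and 1 library weighed on the counts. Mki67, a marker of cycling cells, was at 2.60, 1.45 and 2.06 against 1.99, 2.73 and 2.64 RPKM (0.20 ± 0.18, adjusted p = 0.649). Of 45 G2/M genes 4 (8.89%) were higher and 3 lower without overlap, with a median of 0.091, and 35 of the 45 differences were above 0. The median was 0.077 to 0.086 under the other scalings and 0.027 to 0.266 with any 1 library left out. Without control 5-FU replicate 1, which had the highest level of Ccnb2 and Cenpa in its group, these became 21 higher (46.7%) and 4 lower (8.89%) with a median of 0.266. In S phase genes 3 of 48 (6.25%) were higher and 3 lower, with a median of 0.022 that ran from -0.063 to 0.102 with 1 library left out. Without control 5-FU replicate 1 the S phase counts became 19 higher (39.6%) and 3 lower (6.25%), where all genes had 19.8% and 15.6%. Of 15 quiescence regulators, Ndn, an imprinted growth suppressor, was higher at 29.8, 32.4 and 23.2 against 40.4, 33.7 and 39.8 RPKM (0.41 ± 0.13, adjusted p = 0.161). Cdkn1a, the inhibitor p21, was at 4.85, 0.372 and 0.571 against 2.41, 1.03 and 0.948 RPKM, a difference of 0.03 ± 0.43 whose sign rested on single libraries. It was -0.35 without control 5-FU replicate 2, -0.25 without replicate 3 and -0.23 without antibiotics 5-FU replicate 1.

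Among metabolic lists, fatty acid oxidation had 7 of 30 members (23.3%) higher and 2 lower without overlap, with a median of 0.074. The lysosomal acid lipase gene Lipa was at 1.87, 2.07 and 1.99 against 2.46, 2.84 and 2.52 RPKM (0.28 ± 0.08, adjusted p = 0.136). Acadm, the medium-chain acyl-CoA dehydrogenase, was at 3.57, 3.95 and 4.80 against 5.26, 5.40 and 5.16 RPKM (0.30 ± 0.11, adjusted p = 0.209). At steady state 0 members were higher and 7 lower, with a median of -0.072. With one total for all libraries the day 12 counts became 4 higher (13.3%) and 5 lower (16.7%). Of 74 oxidative phosphorylation genes 8 (10.8%) were higher and 1 lower, with a median of 0.068 that turned to -0.023 without control 5-FU replicate 3. In the iron list 2 of 16 were higher and 1 lower. Its lower member Pcbp1, an RNA-binding protein that also delivers iron to ferritin, was at 69.5, 71.0 and 65.1 against 52.1, 51.5 and 57.9 RPKM (-0.34 ± 0.09, adjusted p = 0.122). The ferritin heavy chain gene Fth1 (385 to 466 against 438 to 479 RPKM) and the iron exporter Slc40a1 (1.15 to 2.66 against 1.26 to 1.57 RPKM) overlapped. The sign of the Slc40a1 difference, -0.14 ± 0.24, turned to 0.08 without control 5-FU replicate 1. The transferrin receptor gene Tfrc was below the filter, at 0.367, 0.609 and 0.631 against 0.538, 0.821 and 0.809 RPKM, and overlapped.

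Innate immune genes, which respond to microbial products, showed no common direction on day 12. Of 46 type I interferon genes 5 (10.9%) were higher and 2 (4.35%) lower without overlap, with a median of -0.024. At steady state 0 were higher and 22 lower, with a median of -0.261. Rsad2, the antiviral protein viperin, was at 3.98, 3.44 and 3.46 against 5.55, 5.69 and 4.67 RPKM (0.44 ± 0.09, adjusted p = 0.0742). Irf7, a transcription factor that amplifies interferon signals, was at 21.5, 18.3 and 16.9 against 22.4, 24.1 and 16.5 RPKM and overlapped. In the interferon gamma list 5 of 34 members (14.7%) were lower and 1 higher, the antigen presentation genes Tapbp, H2-D1, Psmb8, Tap2 and H2-K1 being the lower ones. The median of that list was 0.04, and 21 of its 34 differences were above 0. H2-D1, a class I molecule that presents peptides, was at 727, 692 and 673 against 637, 617 and 597 RPKM (-0.18 ± 0.08, adjusted p = 0.305). The interaction was called for no member of either list. In the NF-kB list 2 of 21 were higher and 0 lower, and among 19 microbial sensing genes 1 was higher and 1 lower. Unc93b1, which escorts nucleic acid-sensing Toll-like receptors to endosomes, was the higher one, at 9.53, 10.4 and 9.39 against 10.7, 11.9 and 12.7 RPKM (0.24 ± 0.09, adjusted p = 0.263).

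Stress genes leaned lower in part. Of 19 heat shock chaperone genes 4 (21.1%) were lower and 1 higher without overlap, with a median of -0.139, which was -0.006 without control 5-FU replicate 1. Hsph1, a nucleotide exchange factor of Hsp70, was at 3.73, 2.89 and 2.80 against 1.90, 1.44 and 1.45 RPKM (-0.67 ± 0.15, adjusted p = 0.0901). Hspa8, the constitutive Hsp70, was at 333, 236 and 299 against 232, 217 and 197 RPKM (-0.41 ± 0.15, adjusted p = 0.226). In the unfolded protein response 5 of 28 (17.9%) were lower and 2 (7.14%) higher, where all genes had 9.67% and 11.5%. The median of that list was -0.026, which ran from -0.121 to 0.03 with 1 library left out. Its lower members included Asns, the asparagine synthetase, at 2.28, 1.44 and 1.36 against 1.14, 0.875 and 1.06 RPKM (-0.40 ± 0.12, limma, adjusted p = 0.148). Of 28 antioxidant genes 5 (17.9%) were higher and 2 lower, and thioredoxin, encoded by Txn1, was at 12.2, 12.0 and 10.2 against 15.8, 14.2 and 14.9 RPKM (0.36 ± 0.09, adjusted p = 0.119). Among 38 genes of lysosomes and autophagy 6 were higher and 5 lower. The cathepsins stood on both sides, Ctsd at 34.2 to 37.6 against 26.4 to 29.4 RPKM (-0.38 ± 0.09, adjusted p = 0.0901) and Ctss at 0.683 to 1.28 against 1.43 to 1.84 RPKM (0.41 ± 0.12, adjusted p = 0.15).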

How the data were processed

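RNA of 12 libraries, 3 per group, had been sequenced and deposited by the authors as RPKM for 46986 features, with 0.0001 in place of 0. Per the submitters' processing notes, STAR 2.5.3a and Partek were used with mm10; no source used here gives the counting rule, strand setting or annotation release. Estimated depth, from the steps between low values, was 27.4 to 54.0 M reads per library. Only 50.7% to 55.8% of the low values lay within 2% of whole steps, so reads were not recovered and no count test was run.

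All 12 libraries were fitted in limma 3.58.1 (R 4.3.3) on log2(RPKM + 1) with 4 group means, an intensity trend and 8 residual degrees of freedom, two-sided, with Benjamini-Hochberg adjustment over the 8553 genes with at least 1 RPKM in 3 libraries. The script was tested on simulated data. An exact permutation test of 3 against 3 cannot go below p = 0.1 and was not used. Alternatives were other pseudocounts (0.1 and 0.5), filters, scalings and moderation, the 6 libraries alone, array weights, each library left out and the i7 index as a replicate block. The titles give each control 5-FU library the i7 index of 1 antibiotics 5-FU library, without saying what it marks. Replicate numbers follow accession order. Deviations from group means correlated at 0.498, 0.315 and 0.295 in the pairs that share an index and at -0.358 to 0.124 in the others. The libraries of a group deviate from a shared mean, so these correlations depend on each other. Whether the index marks a pairing was thus not settled. It was treated as pairing the libraries only in the block alternative. The main fit, and every p-value given without a named setting, ignored this pairing. With the block 22 genes were called, and 6 of the 10 main calls stayed.

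The members and the 36 lists were chosen with earlier results of these data known. Named genes were up to 12 called genes per direction with at least 5 RPKM in the higher group, no overlap and no predicted or pseudogene feature, filled to 8 by smallest p; for the interaction up to 6 per direction, filled to 3; from each list the member with the smallest p; and always Hlf, Mecom, Procr, Mki67, Cdkn1a, Tfrc, Slc40a1 and Fth1. Of these, 1 gene is not reported here. Further list members named as examples were chosen after their values were seen. Ends of genes are the deposited stop less 1.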

Additional observations from a re-analysis of the deposited data

Results flagged for a closer look

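Gm37599 was flagged because its antibiotic difference on day 12 differed from that at steady state by -1.0035 ± 0.11 on the log2 scale (limma interaction, adjusted p = 0.0134). The mean was 3.28 RPKM in control 5-FU and 1.37 RPKM in antibiotics 5-FU libraries, against 3.11 RPKM in control and 3.56 RPKM in antibiotics libraries at steady state. The difference between the times no longer passed the threshold with the i7 index as replicate block (adjusted p = 0.111), nor without control 5-FU replicate 2 (limma, adjusted p = 0.0651), while the day 12 difference itself passed in both fits (limma, adjusted p = 0.012 and 0.0107).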

How the results depend on the processing

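The counts of called genes depended on the setting, from 6 higher and 4 lower. They were 15 and 7 with at least 5 RPKM required, 24 and 27 with one total over all features, 20 and 14 with one total without pseudogenes, 36 and 36 with quantile normalization, 2 and 1 with only the 6 libraries, 66 and 54 with array weights, and 13 and 9 with the i7 index as replicate block. Leaving out 1 library gave 4 to 25 higher and 1 to 17 lower, with 25 and 17 without control 5-FU replicate 1 and 12 and 16 without control 5-FU replicate 3. Leaving out both replicate 1 libraries, added after seeing the data, gave 10 higher and 3 lower. The interaction had 0 genes higher and 1 lower, which became 5 and 2 with no filter and 0 lower with at least 5 RPKM, with the block and without both replicate 1 libraries; leaving out 1 library gave 0 to 1 lower. The causes were not tested. Rn18s-rs5 and Serpinf1 stayed called in all 19 alternatives and Gm37599 in the 18 that tested it.

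The difference of Cdkn1a turned to -0.0292 with quantile normalization. With 1 library left out, it ran from -0.3502 to 0.6961 for Cdkn1a, from -0.0197 to 0.3211 for Hlf, from -0.3023 to 0.0808 for Slc40a1, from -0.2926 to 0.0025 for Tie1 and from -0.0565 to 0.0378 for Gata2. The turned signs came without control 5-FU replicate 1 for Hlf, Slc40a1 and Tie1, and without control 5-FU replicate 2 for Gata2. Slc40a1 was at 0.0727 without both replicate 1 libraries. The replicate block changed no call of a named gene beyond those given. Depth limits genes at a few RPKM, where counting error is part of the spread.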

Other observations

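Groups of genes looked at after their values were seen add cytoskeletal and chromatin genes. Of 9 tested tubulin genes 4 (44.4%) were lower without overlap and 0 higher on day 12, where all genes tested had 9.67% lower and 11.5% higher. At steady state 0 were higher and 1 (11.1%) lower, where all genes had 13.0% and 9.06%. Tubb4b, a beta-tubulin, was at 155, 143 and 131 RPKM in control 5-FU and at 98.9, 102 and 108 RPKM in antibiotics 5-FU libraries (-0.47 ± 0.10, limma adjusted p = 0.0832). Tuba4a, an alpha-tubulin, was at 51.9, 58.6 and 55.8 against 45.4, 44.7 and 44.8 RPKM (-0.29 ± 0.07, limma adjusted p = 0.104). Of 38 replication-dependent histone features 6 (15.8%) were higher and 1 (2.63%) lower without overlap, near the 11.5% higher of all genes, with a median of 0.04. The linker histone gene Hist1h1c was at 24.4, 13.1 and 15.7 against 40.3, 26.9 and 26.4 RPKM (0.80 ± 0.21, limma adjusted p = 0.124). Hist1h4d was at 65.6, 49.0 and 43.3 against 71.4, 97.4 and 96.8 RPKM (0.75 ± 0.21, limma adjusted p = 0.134). At steady state 15 of the 38 (39.5%) were higher and 2 (5.26%) lower, with a median of 0.416. Most replication-dependent histone messages carry no poly(A) tail, and near-identical copies can share reads.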
